A study of Homo sapiens with 12 samples.

Results

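The 3 RNA sequencing libraries of A498 cells treated with a control siRNA, of 12 libraries in the series, are described here by the level of each gene. The libraries were picked out by their treatment label and not by a measured value, but earlier results of these data were known when the choice was made. A498 is an established human cell line from a kidney carcinoma and lacks a working VHL protein. The cells had been grown under standard culture conditions, transfected with an siRNA, a small double-stranded RNA that reduces a matching mRNA, and harvested for total RNA, and each group had 3 biological replicates. The other 9 libraries came from cells in which ELOVL2 (siELOVL2), ELOVL5 (siELOVL5) or the pair of genes had been knocked down, 3 libraries each, and serve here only to show whether a pattern between replicates recurs. All 12 carry the same batch label. The control cells were themselves transfected, so the levels are those of transfected cells of 1 line, and untransfected or non-malignant kidney cells were not analysed here.

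The VHL protein is the substrate-binding part of a ubiquitin ligase that marks the hypoxia-inducible factors HIF1A and EPAS1 (HIF2A) for degradation when oxygen lets prolyl hydroxylases act on them. Loss of VHL is the founding event of most clear cell kidney carcinomas, which arise from the proximal tubule and are known for stored lipid and glycogen. ELOVL2 and ELOVL5 lengthen polyunsaturated fatty acids (PUFA), the long chains with several double bonds from which membrane lipids and signalling oxylipins are made. The FADS enzymes add the double bonds between rounds of elongation. Interferons are secreted proteins that induce a broad set of antiviral genes through JAK kinases and STAT transcription factors.

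The deposited values are read counts that the authors had forced onto 1 shared distribution over the 12 libraries, and they are called normalized counts here. Every library therefore totals 8.525 M, and only the order of genes is a library's own. Tied low values gave an estimate of the depth before that step, which was 6.72 M reads for replicate 1, 8.20 M for replicate 2 and 8.87 M for replicate 3. A gene with no read could hold up to 0.917, 0.75 and 0.417 normalized counts. A value of 50 stood for about 39.4 to 52.0 reads, which gives a counting error of 13.9% to 15.9%, and a value of 10 had one of 31.0% to 35.6%. These errors cover counting only. Values in the text are normalized counts in replicates 1, 2 and 3 in that order, or normalized counts per kb of exon as mean ± SD (n = 3), and only the second is used between genes. The percentile of a gene is the share of detected genes with a length that lay below it per kb. No comparison between groups is made, so no test is given.

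A total of 15277 of 57773 genes (26.4%) were detected, meaning a value of at least 1 in all 3 libraries, and 37307 stood at 0 in all 3. Of those detected, 13286 were protein-coding and 14064 had a length. The median detected gene stood at 41.3 per kb, the 75th percentile at 110.5 and the 95th at 447. The highest genes per kb were led by mitochondrial transcripts (MT-CO3, MT-CO1, MT-CO2, MT-ND4, MT-CYB, MT-ATP6 and MT-ND5) and by the structural genes ACTB, ACTG1 and TMSB10. FTL, the light chain of the iron store ferritin, stood at 19989 ± 2274 per kb. AKR1B10, an aldo-keto reductase, stood at 8885 ± 1705 and the glycolytic enzyme GAPDH at 7077 ± 504, and the linker histone HIST1H1C completed this group. The table also lists the microRNA feature MIR663A at 12102, 11189 and 11070.4, but its annotated length is so short that its level per kb cannot be compared with those of the others. Mitochondrial transcripts made up 1.48% to 1.51% of the total of each library, and the 10 genes with the highest normalized counts, ranked without regard to length, 3.86%.

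The 3 libraries were not copies of each other. A count-based check covered 2235 genes with recovered counts of 10 to 70 reads in each library. Of these, 10.7% lay past the point that counting error alone gives 5% of the time. Genes with more reads were not in this check. Of 10444 genes with a mean of at least 50, 92 (0.881%) were at least 2 times higher in 1 library than in another, and the median gene of this level differed by 1.15 times. Replicates 1 and 3 held most of the extremes: 40 of the 92 were lowest in replicate 1 and 39 in replicate 3, 41 were highest in replicate 1 and 45 in replicate 3. Of all 15277 detected genes, 5536, 4227 and 5514 were lowest in replicates 1, 2 and 3. In the same order, 5625, 4251 and 5401 were highest. Counts of lowest and highest libraries given below for gene lists stand beside this background. The count was 16 without replicate 1, 78 without replicate 2 and 20 without replicate 3.

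Several of these genes mark the kidney or the tumour. HNF4A, a transcription factor of the differentiated proximal tubule, stood at 169, 361 and 573. CDH6, the cadherin of the developing proximal tubule, stood at 1105, 2621 and 3863, and PDZK1, a scaffold of brush border transporters, at 69.3, 170.2 and 239. All 3 were lowest in replicate 1 and highest in replicate 3. MMP7, a secreted metalloprotease, the complement component C4B and VEPH1 had the same order of libraries. The reverse order was seen for the neutrophil chemokine CXCL8, listed as IL8, at 398, 156 and 63.7. NT5E, the surface enzyme that makes adenosine from AMP, stood at 1737, 685 and 480.2, and the EGF receptor ligand HBEGF, SCG5, SEMA7A and KIAA1199 were likewise highest in replicate 1.

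The same replicate numbers marked the extremes in the other groups. HNF4A stood at 197, 404 and 632 in the siELOVL2 libraries, 149, 357 and 428 in the siELOVL5 libraries and 201, 209.8 and 907 in the libraries with both siRNAs. The number 1 library was thus lowest and the number 3 library highest in all 4 groups, and this also held for CDH6, PDZK1, SCD and IGFBP3. NT5E had the reverse order in all 4 groups. CXCL8 had the reverse order in 3 groups, but in the siELOVL5 libraries it was highest in number 3. Over the 92 genes, 47 (51.1%) had the same lowest and the same highest number in all 3 other groups, beside 682 (6.53%) of the 10444 genes. These 7 genes were singled out after their values were seen, and the labels do not say what a number stands for, so a shared culture, day or preparation behind a number was not tested.

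**Figure D1:**
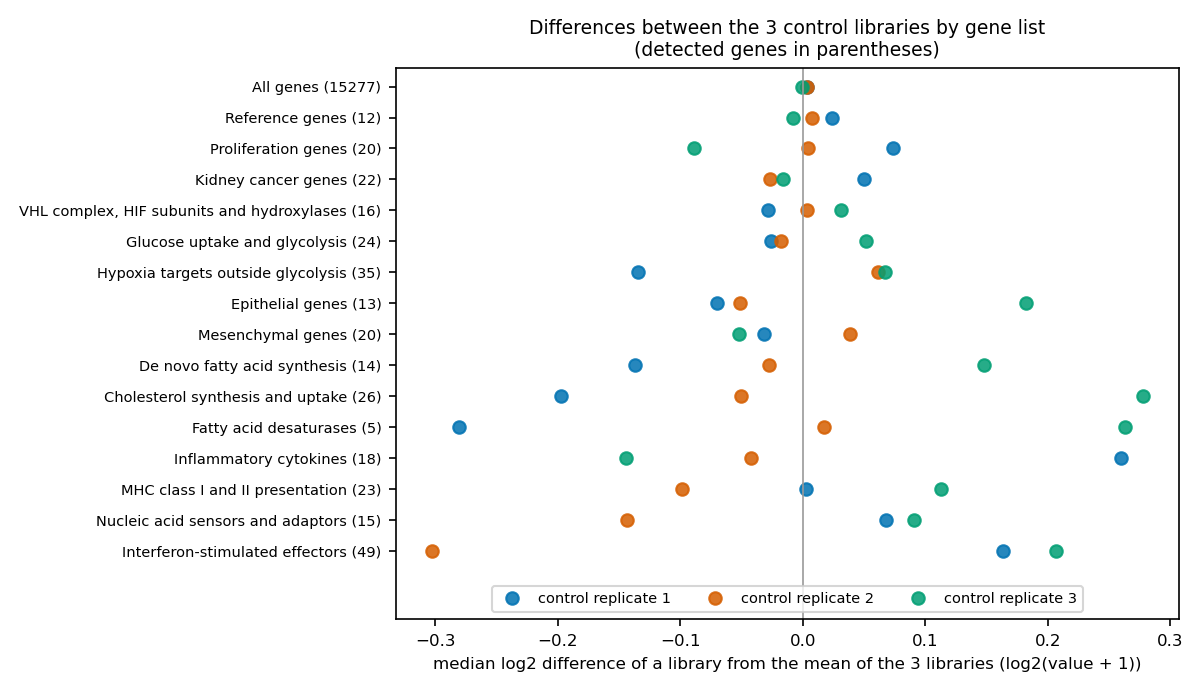
Median log2 difference of each control library from the mean of the 3 libraries (horizontal axis, log2(value + 1)) for the detected genes of 16 sets (vertical axis, number of genes in parentheses); each point is 1 library. Replicate 2 stands apart at -0.30 in the interferon-stimulated effectors and replicate 3 at 0.28 in the cholesterol genes. All genes together sit near 0, which the shared distribution of values largely sets in advance.

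Transcription factors of the nephron lineage were present at moderate levels. Of 22 listed, 15 were detected, with a median percentile of 42.5 ± 4.01, below the 50th of all detected genes, and 1 lay in the top 25%. That gene was SALL1, needed for kidney development, at 702, 697 and 719 (125 ± 2.07 per kb). PAX8, the factor used to recognise kidney epithelium in pathology, stood at 676, 575 and 557. Between libraries PAX8 differed 1.22 times, whereas HNF4A differed 3.39 times. PAX2, the partner of PAX8 in the kidney bud, stood lower at 134, 102 and 117, and LHX1, a factor of the early nephron, stood at 289.5, 244 and 245. MAF came next to SALL1 per kb at 86.5 ± 9.72, although its range overlapped that of PAX8. WT1, the podocyte factor, and FOXI1, that of intercalated cells, were listed at 0 in all 3, as were EMX2, TFAP2B, POU3F3 and IRX1.

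Of 34 genes of proximal tubule transport and metabolism 17 (50%) were detected. The share over all genes in the table, coding or not, was 26.4%, and the share over protein-coding genes alone was not computed. Most of the detected members of the list stood low. They had a median percentile of 16.6 ± 0.148, and 11 of the 17 lay in the lowest 25%. With a floor of 10 for detection 11 genes were counted, with a median percentile of 31.7, and 28 genes reached 1 in at least 1 library. The endocytic receptor LRP2 (megalin), the organic anion uptake carrier SLC22A6, the phosphatase ALPL, the sulfate transporter SLC13A1 and the gluconeogenic enzymes PCK1 and G6PC were at 0 in every library. The partner of megalin, CUBN, stood at 22.8, 14.2 and 18.8, the phosphate transporter SLC34A1 at 5.58, 2.67 and 2.92 and the water channel AQP1, summed over its numbered rows, at 5.83, 7.83 and 7.33. CUBN, SLC34A1 and AQP1 were each detected in all 3 libraries, but each lay in the lowest 25% per kb.

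A few brush border and basolateral genes were high. ANPEP, a peptidase of the brush border, stood at 5348, 3988 and 4341, which placed it at percentile 98.1 (936 ± 145 per kb). SLC4A4, the basolateral bicarbonate exit carrier, stood at 855, 1314 and 1732, and the peptidase DPP4 at 573, 576 and 804. Their percentiles were 78.1 and 78.1, and both were highest in replicate 3. The endocytic adaptor DAB2 stood at 680.3, 743 and 785 and differed little between libraries. Of 23 genes of other nephron segments 11 (47.8%) were detected, with a median percentile of 11.8 ± 2.66, and with a floor of 10 the count was 4 and the median 31.3. UMOD of the thick ascending limb and AQP2 of the collecting duct were at 0, while SYNPO, an actin-binding gene known from podocytes, stood at 1915, 2812 and 2863 and PODXL at 351, 305 and 280. SCNN1A, a subunit of the epithelial sodium channel, stood at 56.5, 103 and 109.

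Genes that injured or dedifferentiated tubule cells switch on were detected in 11 of 13 cases, with a median percentile of 69.5 ± 6.17. SPP1, the secreted matrix protein osteopontin, was among the highest genes of the cells at 6881, 8362 and 10476. HAVCR1, the injury marker KIM-1, stood at 526, 565 and 595 and the adhesion receptor VCAM1 at 1558, 1625 and 1568, and the libraries differed 1.13 and 1.04 times. The injury gene LCN2 stood at 1, 0 and 3.67, near or at no reads. CD24 was not analysed here.

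**Figure D2:**
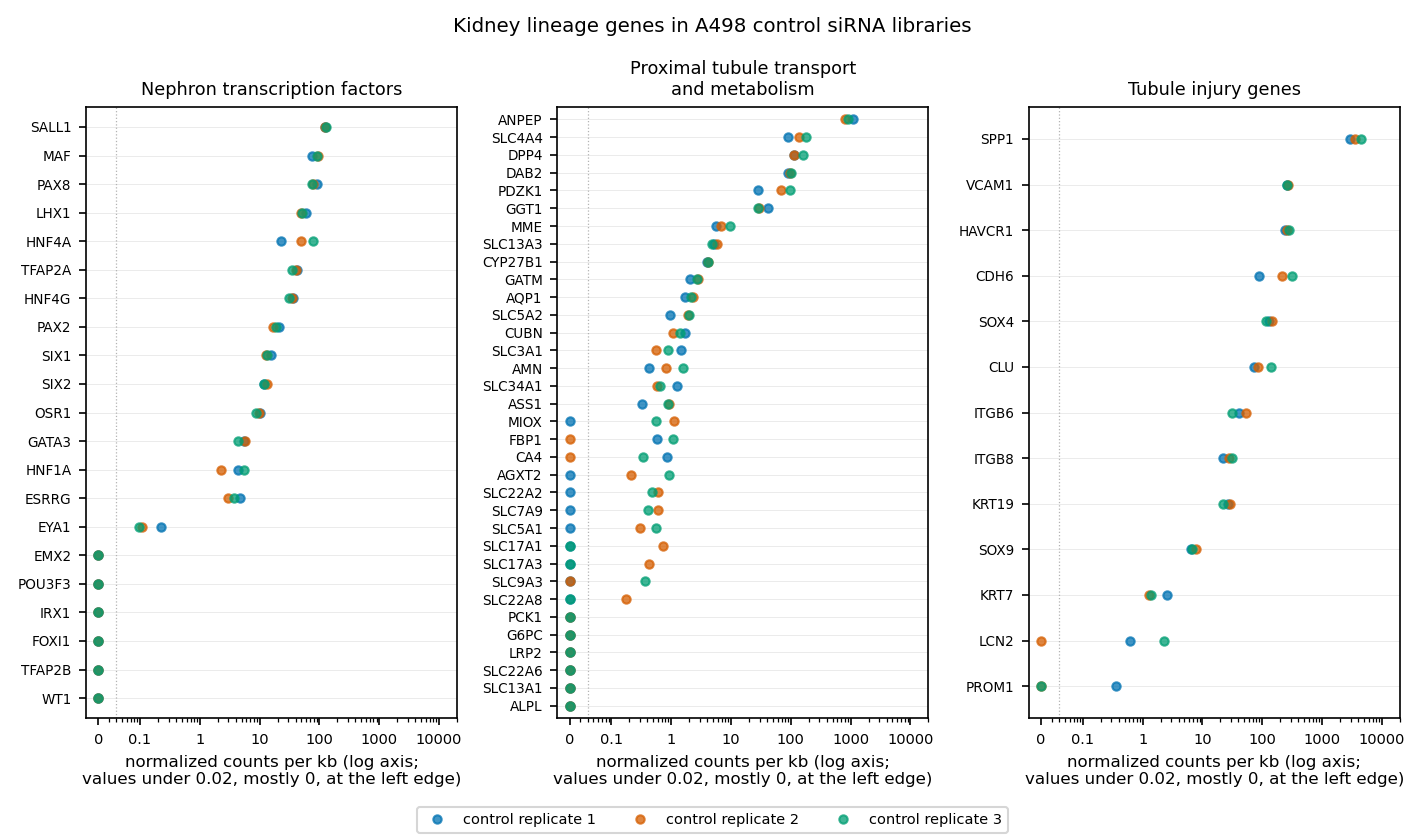
Normalized counts per kb of exon (horizontal log axis, values of 0 at the left edge) for nephron transcription factors, proximal tubule genes and tubule injury genes (vertical axis); each point is 1 control library. SPP1 and ANPEP stand at the high end, LRP2 and SLC22A6 at 0, and HNF4A, PDZK1 and CDH6 spread more than 3 times between libraries.

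Epithelial and mesenchymal genes were present side by side. The simple-epithelium keratins KRT8 and KRT18 stood at 5179, 5642 and 7685 and at 2080.1, 2072 and 2891, at percentiles 97.9 and 97.3 and both highest in replicate 3. The tight junction gene CLDN1 stood at 1067, 800.2 and 593, highest in replicate 1. The junction cadherin CDH1 stood at 1, 0.917 and 0, which is at or near no reads, and EPCAM at 2.08, 1 and 4.5, while GRHL2, a regulator of epithelial junction genes, was at 0. The neural cadherin CDH2, which renal proximal tubule cells also carry, stood at 2877, 3026 and 2749. Over the lists, 13 of 18 epithelial genes were detected with a median percentile of 60.8 ± 5.15, and without replicate 3 it was 43.7. For the mesenchymal list the counts were 20 of 24, with a median of 93.8 ± 0.130.

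VIM, the mesenchymal filament protein, stood at 24170.4, 21782 and 17859, so that per kb it was 5.89 ± 1.79 times KRT18. The matrix genes SPARC (3866 ± 147 per kb), TGFBI (2263 ± 241) and FN1 (878 ± 93.0) had percentiles of 99.8, 99.5 and 97.9. The repressors of epithelial genes differed among themselves: SNAI1 stood at 315 ± 41.5 per kb, SNAI2 at 66.2 ± 17.9, ZEB1 at 34.6 ± 7.42 and ZEB2 at 26.5 ± 2.62, and TWIST1 and TWIST2 were at 0. The fibrillar collagen genes COL1A2 and COL3A1 were also at 0, while COL4A1 and COL4A2 of the basement membrane both stood at percentile 94.0.

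Most leukocyte and endothelial markers were not detected, whereas 6 of 11 fibroblast and pericyte markers were. The shares were 28.6% (leukocyte), 33.3% (endothelial) and 54.5% (fibroblast and pericyte), beside 26.4% of all genes in the table, coding or not. Of 14 leukocyte markers 4 were detected, and the list summed to 343 to 394 normalized counts per library, or 31.7 to 42.0 without the lysosomal gene CD68, which many cell types express. PTPRC, the pan-leukocyte phosphatase, stood at 0, 0 and 1, and CD3D, CD3E, CD8A and LYZ were at 0. The 9 endothelial markers summed to 13.4 to 39.1, with 3 detected and CDH5, KDR and EMCN at 0. PECAM1 was not analysed here. The 11 fibroblast and pericyte markers summed to 665 to 721, with DCN, LUM and THY1 at 0 and COL1A1 at 335, 431 and 422. The libraries are of 1 established cell line, and bulk RNA does not show which cells a transcript came from.

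Among kidney cancer genes, 22 of 25 were detected with a median percentile of 74.1 ± 0.616. MET, the receptor of hepatocyte growth factor, led at 14577, 13311 and 13122 (1942 ± 112 per kb), followed per kb by CDKN1A (836 ± 51.7), the p53-induced cell cycle inhibitor, and the receptor kinase AXL (586 ± 130.1). EGFR stood at 5370.5, 5832 and 6161. CDKN2A and CDKN2B, neighbouring cell cycle inhibitor genes, were at 0 in all 3 libraries, and the receptor kinase KIT stood at 0, 1 and 0. The chromatin genes often mutated beside VHL in this disease were detected: PBRM1 at 519.7, 475 and 491, BAP1 at 723, 679.5 and 674 and SETD2 at 890, 935 and 933. Proliferation genes were high, with 18 of 20 in the top 25%. The replication clamp PCNA stood at 1656, 1562 and 1703 and the helicase subunit MCM7 at 3335, 3174 and 3140.4. TOP2A stood at 6807, 6378 and 5200.1 and MKI67 at 5785, 5247 and 4617, both lowest in replicate 3. Over the list, 15 of 20 genes were lowest in replicate 3, and in the other groups the number 3 library was lowest for 16 (siELOVL2), 19 (siELOVL5) and 16 (both siRNAs). The 12 reference genes, such as TBP at 154, 138 and 119 and PPIA at 7518, 7594 and 7432, were all detected, with a median percentile of 99.2 ± 0.0693.

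The oxygen-sensing machinery was expressed except for 1 gene, HIF3A. Of 17 listed genes 16 were detected, with a median percentile of 77.3 ± 0.144 and a median difference between libraries of 1.09 times, less than the 1.22 times over all detected genes. VHL itself stood at 223, 186 and 209.9, at percentile 54.3; the level of a transcript says nothing about the protein it encodes. Its partners in the ligase stood higher per kb, ELOB at 672 ± 43.8, ELOC at 172 ± 10.5, CUL2 at 172 ± 22.4 and RBX1 at 115 ± 1.68, against 49.0 ± 4.42 for VHL.

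HIF1A stood at 1980.2, 2084 and 2119 and EPAS1, which encodes HIF2A, at 1486, 1508 and 1563. Per kb EPAS1 was 0.529, 0.510 and 0.520 times HIF1A (0.520 ± 0.00940), and the ranges of the genes did not overlap. HIF3A, a partly inhibitory family member, stood at 0, 1 and 2.75. The shared partner ARNT stood at 45.1 ± 0.787 per kb, and its range overlapped that of VHL, whose range overlapped that of ARNT2. Of the prolyl hydroxylases, EGLN3, itself a HIF target, was highest at 422 ± 57.8 per kb, EGLN1 stood at 173 ± 4.64 and EGLN2 at 16.0 ± 2.98. The ranges of EGLN3 and HIF1A overlapped, as did those of EGLN1 and ELOC and those of ELOC and CUL2.

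The promoters of 2 hypoxia targets are shown because 1 gene stood high and the other low in the list while both carried the core letters of the hypoxia response element, ACGTG. The sequences are RefSeq promoters (GRCh38.p14), 100 bases upstream of the gene start, 5′ to 3′ on the gene's strand, with matches on either strand in capitals. The PLIN2 stretch is chr9:19127509-19127608 (minus strand) and the CA9 stretch chr9:35673828-35673927 (plus strand).
PLIN2: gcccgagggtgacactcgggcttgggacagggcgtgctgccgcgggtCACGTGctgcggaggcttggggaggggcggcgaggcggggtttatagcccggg
CA9: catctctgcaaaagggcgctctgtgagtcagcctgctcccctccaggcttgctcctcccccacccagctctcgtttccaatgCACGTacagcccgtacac
In PLIN2 the capitals hold 2 overlapping matches, 1 on each strand. A match to ACGTG on either strand within 250 bases upstream was present in 18 of 30 promoters of the hypoxia list (60%) and 8 of 22 of the glycolysis list (36.4%), beside 18.7% of 27305 promoters of all genes. A match is a description of the letters and not of binding. The hypoxia list was made of known hypoxia targets, so its share describes the list and not these cells.

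Targets of the HIFs outside glycolysis were high as a group, with marked exceptions. Of 37 listed, 35 were detected, with a median percentile of 85.4 ± 0.301, and 20 of the 35 lay in the top 25%, which holds 24.9% of all detected genes. IGFBP3, which binds insulin-like growth factors, stood at 8929, 15561 and 21782, lowest in replicate 1 and highest in replicate 3. CA12, a membrane carbonic anhydrase, stood at 8874, 10353 and 11596 and VEGFA, the vascular growth factor, at 3777, 4746 and 4863. TGFA, the EGF receptor ligand, stood at 4583, 4375 and 3739, and CCND1, the cyclin known as a HIF2A target in this disease, at 2659, 2652 and 2556, where the libraries differed by only 1.04 times.

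PLIN2, the coat protein of lipid droplets, stood at 5480.2, 4754 and 4967 (996 ± 73.4 per kb, percentile 98.3). NDRG1, a stress-response gene, stood at 6319, 8039.6 and 8786, and the collagen lysyl hydroxylase PLOD2 at 4612, 5179 and 4857. At the low end, CA9, the carbonic anhydrase widely used as a marker of VHL loss, stood at 8.67, 10.8 and 26.5 (percentile 23.9). NDUFA4L2, a mitochondrial gene usually very high in clear cell tumours, stood at 2.67, 5.33 and 3.75, the lipase inhibitor HILPDA at 2.25, 5.08 and 3.67 and ANKRD37 at 11.2, 10.1 and 13.1. Per kb CA12 stood at 1405 ± 186 and CA9 at 9.18 ± 5.83. EPO and NRN1 held a value above 0 in replicate 2 only, at 1.83 and 2.08. At these depths such values stand for about 2 reads. Over the list, 24 of 35 genes were lowest in replicate 1, beside 5536 of all 15277 detected genes. The list median lay -0.13 from the mean there on the log2 scale.

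Glycolysis was among the highest pathways, and all 24 genes were detected, with a median percentile of 94.0 ± 0.336 and 19 in the top 25%. Of the glucose carriers, SLC2A1 (GLUT1) stood at 4453, 4325 and 3762 and SLC2A3 at 801, 929 and 1074, and SLC2A1 was higher per kb (885 ± 77.9 against 152 ± 22.1). Among the early enzymes, HK1 was 3.15 ± 0.354 times HK2 per kb, and the phosphofructokinase isoform PFKP was 8.07 ± 0.428 times PFKM. ALDOA, PKM and ENO1 had percentiles of 99.8, 99.7 and 99.5, with PKM at 25243, 25243 and 24170.4, while the brain-type isoforms ALDOC and ENO2 stood at 28.2 ± 7.85 and 16.9 ± 1.54 per kb. LDHA and LDHB were close, with an LDHA to LDHB ratio of 0.873 ± 0.0439. SLC16A3 (MCT4), the lactate exporter, was 1.76 ± 0.102 times SLC16A1 (MCT1). PDK1, the kinase that holds back pyruvate entry to mitochondria, was lowest per kb at 13.5 ± 1.24.

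**Figure D3:**
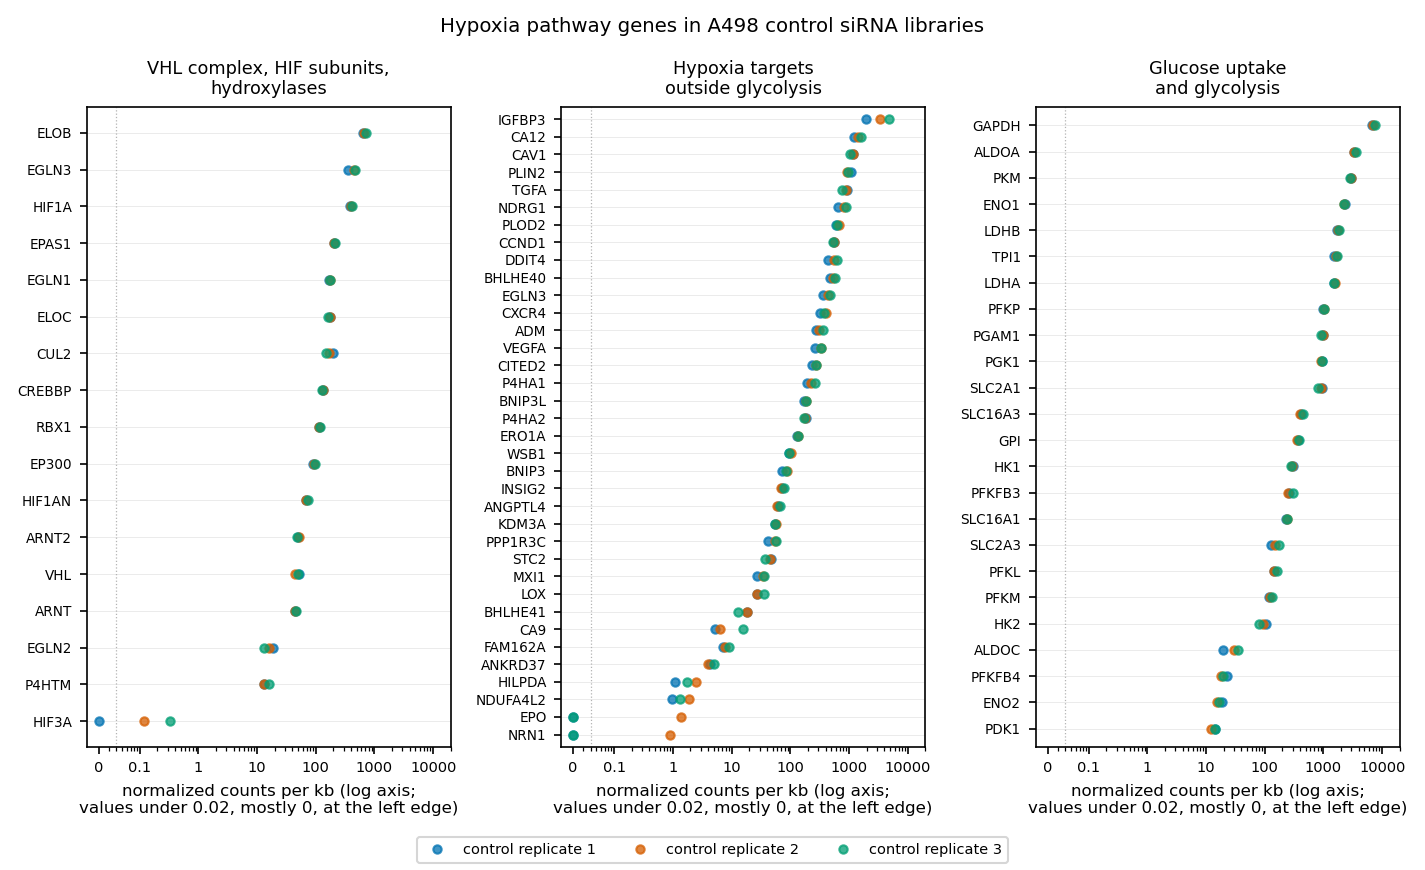
Normalized counts per kb of exon (horizontal log axis, values of 0 at the left edge) for the VHL complex and HIF genes, hypoxia targets and glycolysis (vertical axis); each point is 1 control library. HIF1A and EPAS1 spread 1.07 and 1.05 times between libraries, while IGFBP3 and CA9 spread 2.44 and 3.06 times. CA9 holds few reads, so its counting error is much larger than that of the other 3 genes.

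The elongases, which lengthen a fatty acid chain, formed a clear order. Of 7, 6 were detected. ELOVL5, which acts on the shorter PUFA, was highest at 1939, 1954 and 2038 (518 ± 13.9 per kb, percentile 95.9). ELOVL1, for saturated very long chains, followed at 478, 526 and 565 (209 ± 17.4 per kb) and ELOVL6, which lengthens palmitate, at 904, 974 and 1325 (146 ± 30.9 per kb). ELOVL2, which acts on the longer PUFA, stood at 299, 299 and 211 (67.5 ± 12.7 per kb, percentile 62.2), and was lowest in replicate 3. No range overlapped that of the next gene in this order. ELOVL7 stood at 35.1 ± 6.13 and ELOVL3 at 8.10 ± 2.32 per kb, and ELOVL4 was at 0. Per kb ELOVL5 was 6.80, 6.84 and 10.1 times ELOVL2 (7.91 ± 1.90), with the highest ratio in replicate 3.

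The desaturases stood in the order SCD, FADS2, FADS3, FADS1. SCD, the stearoyl desaturase that makes oleate, stood at 6161, 10825 and 14339 (1947 ± 765 per kb), again lowest in replicate 1 and highest in replicate 3. FADS2, the desaturase that opens PUFA synthesis, stood at 1022, 1551 and 1962, and FADS1, which acts after the first elongation, at 417, 513 and 608. FADS3 stood at 476, 499.6 and 518, and all 3 FADS genes had the order of libraries seen for SCD. FADS2 was 2.69 ± 0.372 times FADS1 per kb. SCD5 stood at 6.58, 1.17 and 2.08 and FADS6 at 0. Among the enzymes that complete each elongation round, the dehydratase HACD3 stood at 1677, 1749.6 and 1749, the reductase TECR at 639.8, 711 and 707 and the ketoreductase HSD17B12 at 584, 555 and 712. Electrons reach the desaturases through cytochrome b5, whose reductase CYB5R3 was also high (244 ± 6.63 per kb). The outer mitochondrial form of cytochrome b5, CYB5B, stood at 187 ± 9.96 per kb, and whether it serves the desaturases was not tested. Of the 10 genes of this list 9 were detected.

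Isoforms of fatty acid entry and activation differed in level. ACSL4, the acyl-CoA ligase that prefers arachidonate, was highest at 1983, 2034 and 2023 (314 ± 4.18 per kb), and ACSL3 was 0.668 ± 0.0436 times as high per kb. The binding proteins DBI and FABP5 stood at 258 ± 26.7 and 225 ± 16.8 per kb, while FABP1, FABP7 and the carriers SLC27A2 and SLC27A6 were at 0 and the scavenger receptor CD36 stood at 0, 1.83 and 0.833. In all, 15 of 23 genes were detected, with a median percentile of 68.3 ± 1.54. All 17 peroxisomal oxidation genes were detected, with a median percentile of 57.4 ± 2.67. Peroxisomal oxidation shortens very long chains, the last step to docosahexaenoate. Of the list's genes that do not shorten chains themselves, the carnitine transferase CROT stood at 582, 642 and 616 and the transporter ABCD3 at 889, 952 and 895.

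Genes that place PUFA in membranes or release them were detected in 20 of 21 cases, with a median percentile of 60.7 ± 1.92. LPCAT1 stood at 3352, 3911 and 3891 (572 ± 48.9 per kb) and MBOAT7, which puts arachidonate into phosphatidylinositol, at 2429.7, 2624 and 3242 (523 ± 80.2 per kb). Their ranges per kb overlapped, and both were above the other members on the mean, while LPCAT3, which puts PUFA into phosphatidylcholine, stood at 215, 267 and 309. AGPAT2, an acyltransferase of glycerolipid synthesis, followed LPCAT1 and MBOAT7 per kb at 297 ± 17.2. PLA2G4A, the phospholipase that frees arachidonate, stood at 108, 104 and 76.2.

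Of 26 genes of enzymes that turn freed PUFA into oxylipins 16 were detected, with a median percentile of 39.5 ± 2.98, and 4 of the 16 lay in the top 25%. With a floor of 10 normalized counts for detection the median was 50.6. The highest were PTGES3, which is also a chaperone partner, at 3602, 3533 and 3527, the epoxide hydrolase EPHX1 at 2109, 2544 and 3169 and the prostaglandin reductase PTGR1 at 1444, 1469 and 1746. The entry enzymes lay in the lowest 25% per kb: the cyclooxygenases PTGS2 and PTGS1 stood at 40.8, 49.3 and 36.4 and at 15.6, 11.3 and 5.83, and the lipoxygenase ALOX5 at 7.08, 17 and 16.7. ALOX12 was at 0, ALOX15 stood at 2, 0.833 and 0 and ALOX15B at 1, 0 and 0.833.

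**Figure D4:**
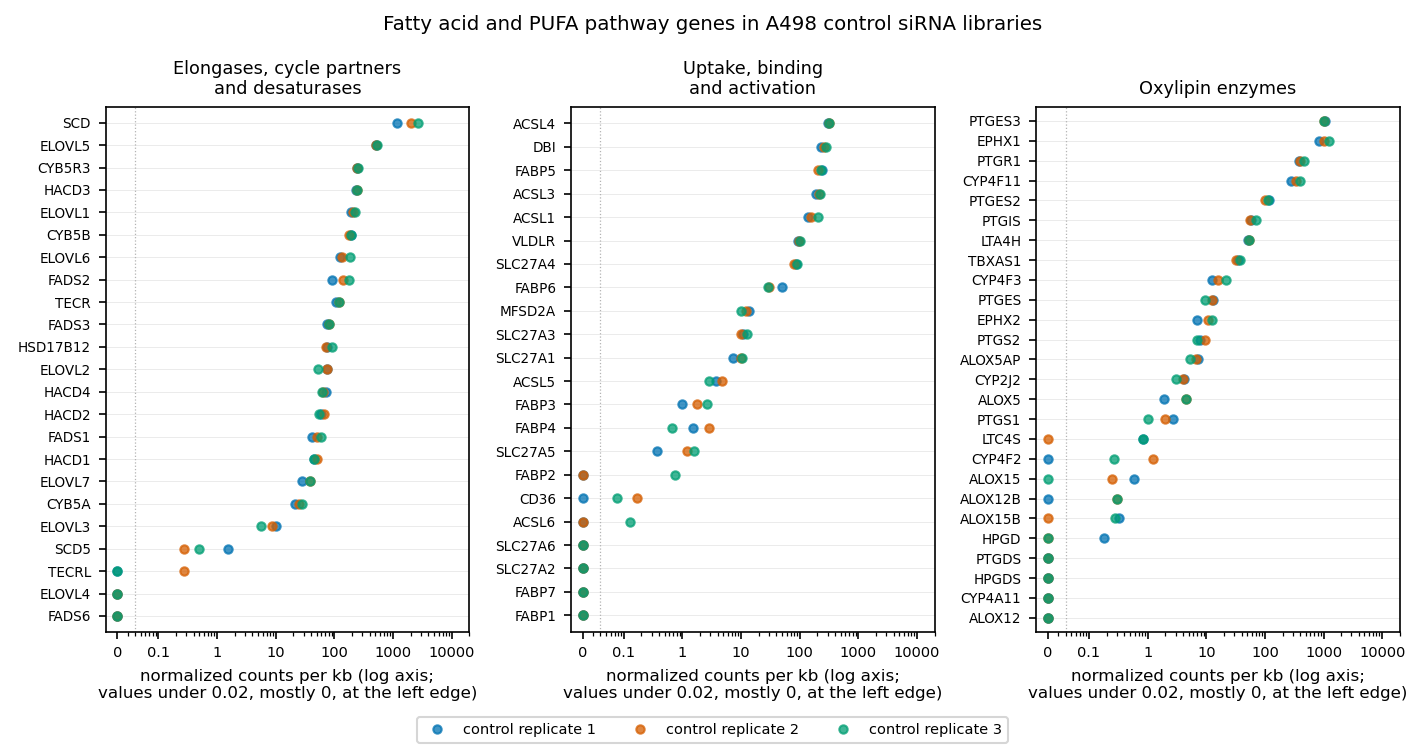
Normalized counts per kb of exon (horizontal log axis, values of 0 at the left edge) for elongases, their partner enzymes and desaturases, for fatty acid uptake and activation, and for oxylipin enzymes (vertical axis); each point is 1 control library. SCD is highest and spreads 2.33 times, ELOVL5 spreads 1.05 times, and ELOVL4, FADS6 and ALOX12 stand at 0.

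Genes of fatty acid and cholesterol synthesis stood high as lists. Of 16 fatty acid synthesis genes 14 were detected, with a median percentile of 82.0 ± 2.85, and 10 of the 14 were lowest in replicate 1 and 10 highest in replicate 3. ACLY, which makes cytosolic acetyl-CoA, stood at 8488, 8612 and 8929, fatty acid synthase FASN at 3586, 4736 and 5983 and the carboxylase ACACA at 1942, 2401 and 2788. SLC25A1, the citrate carrier, stood at 777, 856 and 1033, and SREBF1, the transcription factor of this pathway, at 1015, 1346 and 1631. ACLY differed by 1.05 times and FASN by 1.67 times. MLX at 412, 359.8 and 405, MCAT at 122, 105 and 109 and ACACB at 274, 234 and 241 did not follow this order and were highest in replicate 1 and lowest in replicate 2. Of 28 cholesterol genes 26 were detected, with a median percentile of 82.9 ± 1.82, and 22 of the 26 were lowest in replicate 1 and 23 highest in replicate 3. The median gene lay -0.20 from the mean of the libraries in replicate 1 and 0.28 in replicate 3 on the log2 scale. Without replicate 3 the first was -0.07, and without replicate 1 the second was 0.15.

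INSIG1, which retains the sterol sensor in the endoplasmic reticulum, stood at 2556, 3100.4 and 3466 and the cholesterol exporter ABCA1 at 6764, 6972 and 5897. SQLE, which oxidises squalene, stood at 1552, 1777 and 2265, and MSMO1, a sterol oxidase, at 1026, 1339 and 1933. LSS, which closes the sterol ring, stood at 397, 581 and 909.8. All 3 were lowest in replicate 1 and highest in replicate 3. In the other 3 groups the number 1 library was lowest for 23, 22 and 15 of the 26 genes, and the number 3 library highest for 21, 24 and 24. The estimated depth was lowest in control replicate 1 and highest in replicate 3. In numbers 1, 2 and 3 it was 9.47, 9.05 and 9.05 M reads (siELOVL2), 9.25, 10.68 and 7.78 M (siELOVL5) and 6.70, 7.72 and 8.80 M (both siRNAs). The part of depth in the order of the cholesterol genes was not tested. The median of all detected genes lay near 0 in each control library, but the shared distribution of values largely sets this in advance. It therefore gives no information on depth. The sterol element letters CACCCCAC were found in 2 of 20 promoters of this list (10%) and 2.37% of all promoters. These 2 promoters were those of the regulator SREBF2 and the exporter ABCA1.

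Lipid storage and use were uneven. Of 28 triglyceride and droplet genes 22 were detected, and beside PLIN2, which was 1.67 ± 0.0615 times PLIN3 per kb, the acyltransferase GPAT3 (264 ± 23.5 per kb) and the monoglyceride lipase MGLL (262 ± 43.7 per kb) were high. DGAT1 and DGAT2, which make triglyceride, stood at 158, 148 and 191 and at 152, 145 and 104, and the fat-cell genes PLIN1 and CIDEA at 2.67, 1 and 1 and at 0. Mitochondrial oxidation genes were detected in 23 of 25 cases, led by ECHS1, HADHA and ACADVL, at percentiles 95.6, 95.3 and 94.9. CPT1A, the gate of mitochondrial fatty acid entry, stood at 542, 516 and 600.5, while PPARGC1A, the coactivator of mitochondrial genes, stood at 9.17, 6.5 and 12.3.

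**Figure D5:**
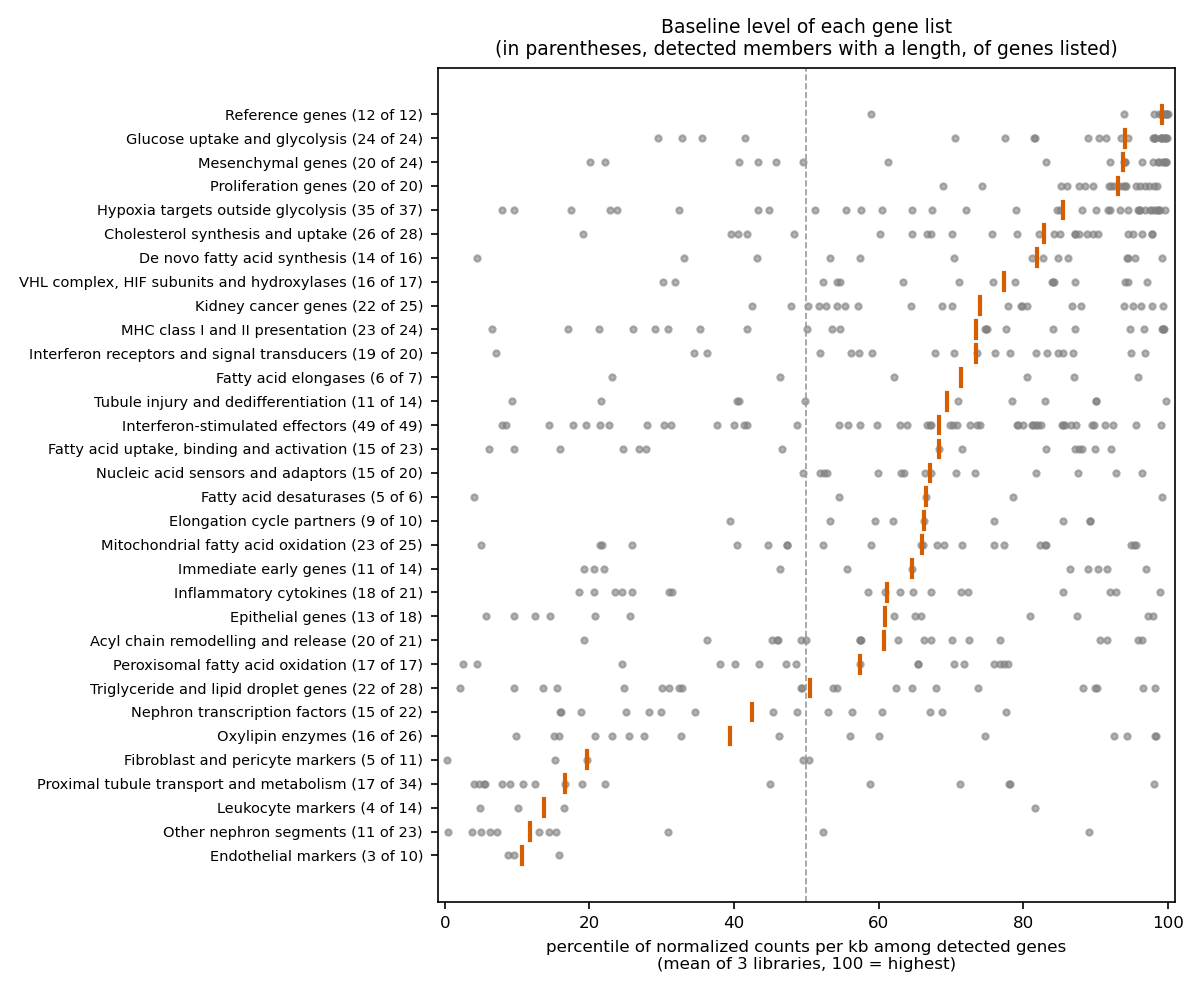
Percentile of each detected gene per kb among all detected genes (horizontal axis, mean of 3 libraries, grey points) for 32 gene lists (vertical axis, with detected genes that have a length and genes listed in parentheses), with the median of each list as an orange bar and the 50th percentile as a dashed line. Glycolysis stands at 94.0 and the mesenchymal list at 93.8, and the proximal tubule list at 16.6 near the leukocyte and endothelial markers.

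Interferon-stimulated genes were expressed without detected interferon transcripts. Of 11 interferon ligand genes 0 were detected in all 3 libraries, and the highest single value was 2.75 (IFNA1 in replicate 3). IFNB1, the interferon that most cells can make, stood at 0, 1 and 1, and IFNG, IFNA2, IFNL2 and IFNL3 were at 0. A value of 3 reads stood at 2.88 to 3.81 normalized counts, so the ligand values lay at or below about 3 reads. The receptors and transducers were present in 19 of 20 cases: the kinase JAK1 stood at 3926, 4190 and 3988, IFNAR1 at 1231, 1173 and 1117, and STAT2 at 951, 847 and 985. IFNGR2, a chain of the gamma interferon receptor, stood at 737, 606 and 516. IFNLR1, the receptor chain particular to lambda interferons, stood at 2.5, 0 and 0, and IRF9, a DNA-binding partner of STAT2, at 70.8, 55.2 and 87.8.

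Promoters of 4 effectors are printed because these genes, known markers of the response, differed between libraries, and all carry GAAANNGAAA, a pair of interferon response half-sites, read on either strand (capitals). They are RefSeq promoters (GRCh38.p14), 100 bases each, upstream of the gene start, 5′ to 3′ on the gene's strand: ISG15 at chr1:1013345-1013444 (plus strand), IFI6 at chr1:27672231-27672330 (minus strand), IFI27 at chr14:94110596-94110695 (plus strand) and EPSTI1 at chr13:42992242-42992341 (minus strand).
ISG15: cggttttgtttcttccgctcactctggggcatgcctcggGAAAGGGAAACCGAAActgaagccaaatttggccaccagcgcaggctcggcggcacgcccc
IFI6: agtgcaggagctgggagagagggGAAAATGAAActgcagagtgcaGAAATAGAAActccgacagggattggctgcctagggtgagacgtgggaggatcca
IFI27: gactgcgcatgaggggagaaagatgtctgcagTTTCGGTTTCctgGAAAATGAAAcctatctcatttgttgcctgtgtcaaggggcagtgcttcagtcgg
EPSTI1: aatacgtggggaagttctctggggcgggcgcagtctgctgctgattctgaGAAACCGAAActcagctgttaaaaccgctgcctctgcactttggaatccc
The 2 matches in ISG15 overlap, IFI6 holds 2 in the printed stretch, and IFI27 holds 1 match on each strand. The letters were found within 250 bases upstream in 24 of 41 effector promoters (58.5%) and in 3.07% of the 27305 promoters of all genes. The list was made of genes known to respond to interferon, so the share describes the list and not these cells.

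All 49 effectors were detected, with a median percentile of 68.4 ± 5.82, and 19 lay in the top 25%. LGALS3BP, a secreted glycoprotein, led at 5097, 4904 and 6465, and BST2, which tethers virions to the cell, stood at 445, 506 and 835. ISG15, the ubiquitin-like modifier, stood at 213, 124 and 225, MX1, a GTPase that traps viral capsids, at 2538, 1049 and 2456, and IFI44L at 2063, 1098 and 2064. These 3 were lowest in replicate 2, and replicates 1 and 3 lay close together. IFI6 at 299, 176 and 640 and IFI27 at 359, 251 and 648 were also lowest in replicate 2 but clearly highest in replicate 3. At the low end, IFIT1 stood at 37.7, 18.5 and 42.4, IFIT2 at 22.8, 21 and 24.6, MX2 at 23.2, 15.5 and 15.3 and the chemokine CXCL10 at 8.67, 1 and 4.5.

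Replicate 2 held the lowest value for 45 of the 49 effectors and the highest for 0. The median effector lay -0.30 from the mean of the libraries in replicate 2, 0.16 in replicate 1 and 0.21 in replicate 3 on the log2 scale. The median effector differed 1.51 times between libraries, beside 1.22 times over all detected genes, and 7 of 41 effectors with a mean of at least 50 (17.1%) varied at least 2 times, beside 0.881% of all such genes. Nucleic acid sensors had a median of -0.14 in replicate 2, with 9 of 15 lowest there, among them RIGI, which is also an effector, at 879, 456 and 786. In the siELOVL5 group the number 2 library was also lowest, for 43 of the 49 genes. In the siELOVL2 group and the group with both siRNAs the number 3 library held the most lowest values, for 23 and 31 genes. The order of libraries thus differed from that of the cholesterol genes, and what sets it was not tested.

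Sensors of foreign nucleic acid were detected in 15 of 20 cases. ADAR, which edits double-stranded RNA, led at 5914, 5110.4 and 5947, followed by the DNA sensor IFI16 at 1809.5, 1559 and 2095 and the RNA-activated kinase EIF2AK2 at 2343, 2030.4 and 2599. CGAS and STING1, the cytosolic DNA pathway, stood at 403, 307 and 285 and at 235, 288 and 292, and TLR3, the endosomal receptor of double-stranded RNA, at 458, 447 and 494. TLR7, TLR8 and TLR9 were at 0. The cells of all 3 libraries had received an siRNA, itself a double-stranded RNA, and its part in these levels was not tested.

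Class I antigen presentation genes stood high per kb, and the list of class I and II genes was lowest in replicate 2 for 14 of 23 members and highest in replicate 3 for 15. The median member lay -0.10 from the mean of the libraries in replicate 2 and 0.11 in replicate 3 on the log2 scale. B2M stood at 11460.2, 10009.8 and 10736, HLA-B at 6357, 6112 and 7009.8 and HLA-C at 4941, 5056 and 6272, at percentiles 99.2, 99.4 and 99.4 per kb; reads shared between HLA genes make the split between them uncertain. The peptide transporter TAP1 stood at 110.5 ± 8.24 per kb and the immunoproteasome subunit PSMB8 at 209 ± 15.9. Class II genes were low, with HLA-DRA at 20.1, 21 and 36, CD74 at 40.2, 24.6 and 65.2 and the activator CIITA at 74.2, 75.1 and 115. HLA-DQA1 was at 0, and the checkpoint ligand CD274 (PD-L1) stood at 58.1, 37.1 and 34.

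Cytokine genes differed from the effectors in their order of libraries. Like the proliferation genes (14 of 20 highest in replicate 1 and 15 lowest in replicate 3), they were mostly highest in replicate 1. Of 21 cytokine genes listed 18 were detected. Of the 18, 15 were highest in replicate 1 and 10 lowest in replicate 3. The median lay 0.26 from the mean in replicate 1 on the log2 scale. In the other groups the number 1 library was highest for 16 genes (siELOVL2), 2 (siELOVL5) and 16 (both siRNAs). CSF1, the macrophage growth factor, led at 9816, 7377 and 6224, followed per kb by IL32 (338 ± 12.6) and LIF (310.3 ± 22.5). IL6 stood at 215, 107 and 72.9 and the monocyte chemokine CCL2 at 258, 189 and 147, both highest in replicate 1 and lowest in replicate 3. TNF and CXCL5 were at 0. Of 14 immediate early genes 11 were detected, and IER3 (643 ± 24.4 per kb), MYC (297 ± 13.1) and JUN (268 ± 35.2) were highest, while FOS stood at 15.3, 21.8 and 34.8 and EGR1 at 17.7, 18.4 and 23.4. JUNB and FOSB stood at no more than 1 in any library.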

How the data were processed

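Total RNA of 12 A498 libraries was sequenced as paired-end reads of 36 bases on an Illumina NextSeq, per the labels' protocols. The deposited table holds a signal value per gene and library, which the authors made from read counts; the aligner, annotation, build and use of strand are each not given in the sources used here. From the values, all 12 columns hold the same sorted numbers in steps of 1/12, which is what quantile normalization over 12 libraries gives, so differences in depth and in the overall distribution were removed before deposit. The groups were taken from the labels, and the replicates are labelled biological.

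Here, values were used as deposited. Depth was estimated from tied low values. On simulated libraries of 57773 genes, 100% of the counts that this step assigned, none above 70 reads, were right. The depths were 0.992 to 1.007 times the true ones. The simulation broke ties by table order, which the estimate assumes, so it did not check that assumption. Levels per kb used GENCODE 29 exon-union lengths matched by symbol, which 92.1% of detected genes had. A gene was detected at 1 or more in all 3 control libraries. Genes with a mean of at least 50 that differed at least 2 times between libraries were called varying. Differences of a library from the mean used log2(value + 1). Promoters were taken from RefSeq (GRCh38.p14), and no coordinate of the authors was used. Python 3.11.15, pandas 2.3.3, numpy 2.4.6 and matplotlib 3.10.9 were used.

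The 33 lists hold 656 genes: 638 matched by the same name, 13 by another name, 3 as a sum of numbered rows, and 2 had no match. The libraries and lists were chosen with earlier results of these data known. Named genes were the highest members of each list, its defining members, the 15 highest genes per kb and the 15 that varied most, apart from some genes that are not reported here or drawn in the gene plots; the 3 motifs, the printed promoters and the isoform ratios were chosen after values were seen. Alternatives were other detection floors, the longest transcript as length, ranks among protein-coding genes, another pseudocount and each library left out.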

Additional observations from a re-analysis of the deposited data

How the results depend on the processing

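No paired analysis was possible because the results come from no test and no groups are compared. No ratio or log2 difference changed direction, but 3 list medians crossed the 50th percentile: that of the epithelial genes without replicate 3, that of the oxylipin enzymes with a floor of 10, and that of the lipid droplet genes, at 50.4, with a floor of 10, with the longest transcript and, at 48.1, among protein-coding genes. The counts of detected genes stayed within 1.5 times of the main count under every floor and with each library left out, and the ELOVL5 to ELOVL2 ratio moved by less than its SD; the EPAS1 to HIF1A ratio was 0.565 with the length of the longest transcript. The number of varying genes was 244 with a floor of 20 on the mean and 42 with one of 200, and 16 to 78 with 1 library left out. With a floor of 10 in all libraries, the genes detected numbered 11 (proximal tubule), 4 (other nephron segments), 2 (leukocyte markers) and 0 (endothelial markers). With 1 or more in at least 1 library they numbered 28 (proximal tubule), 5 (interferon ligands), 8 (leukocyte markers) and 6 (endothelial markers), and with 1 library left out 0 to 2 (interferon ligands). Median percentiles moved by more than the SD between libraries, which was small for most lists, as follows. With a floor of 10 they were 32.3 (nephron transcription factors), 31.7 (proximal tubule), 31.3 (other nephron segments), 93.0 (mesenchymal genes), 69.4 (kidney cancer genes), 73.2 (VHL complex), 87.2 (hypoxia targets), 92.9 (glycolysis), 77.1 (fatty acid elongases), 60.3 (elongation cycle partners), 67.7 (fatty acid desaturases), 66.4 (fatty acid uptake), 53.7 (acyl remodelling), 50.6 (oxylipin enzymes), 46.5 (lipid droplet), 79.8 (cholesterol), 61.1 (mitochondrial oxidation), 70.3 (interferon receptors), 61.2 (nucleic acid sensors), 70.9 (MHC presentation), 91.9 (proliferation genes), 58.2 (immediate early genes), 99.1 (reference genes), 41.3 (leukocyte markers) and 23.1 (fibroblast markers). With the longest transcript they were 17.1 (proximal tubule), 94.9 (mesenchymal genes), 78.5 (VHL complex), 84.3 (hypoxia targets), 96.4 (glycolysis), 65.0 (fatty acid elongases), 73.1 (elongation cycle partners), 60.5 (fatty acid uptake), 62.0 (peroxisomal oxidation), 44.4 (lipid droplet), 79.2 (cholesterol), 71.3 (MHC presentation), 92.2 (proliferation genes), 57.3 (immediate early genes), 99.5 (reference genes) and 17.3 (fibroblast markers). Ranked among protein-coding genes they were 15.1 (proximal tubule), 93.5 (mesenchymal genes), 72.8 (kidney cancer genes), 76.2 (VHL complex), 84.7 (hypoxia targets), 69.99 (fatty acid elongases), 64.9 (fatty acid desaturases), 66.7 (fatty acid uptake), 72.2 (MHC presentation) and 92.8 (proliferation genes). With 1 library left out they ranged over 13.4 to 18.2 (proximal tubule), 59.2 to 72.9 (tubule injury), 43.7 to 64.5 (epithelial genes), 93.9 to 94.0 (mesenchymal genes), 74.2 to 74.9 (kidney cancer genes), 76.5 to 77.8 (VHL complex), 85.6 to 85.9 (hypoxia targets), 71.5 to 72.3 (fatty acid elongases), 66.7 to 67.9 (fatty acid desaturases), 59.1 to 69.7 (fatty acid uptake), 34.5 to 41.9 (oxylipin enzymes), 73.9 to 74.3 (MHC presentation), 60.6 to 64.6 (immediate early genes) and 11.3 to 16.8 (leukocyte markers). The median ratio of highest to lowest library became 1.37 (other nephron segments), 1.39 (leukocyte markers) and 1.81 (endothelial markers) with a pseudocount of 10 and 1.496 (other nephron segments) and 1.16 (leukocyte markers) with a floor of 50 on the mean, and with 1 library left out ranged over 1.22 to 2.14 (other nephron segments), 1.26 to 1.92 (fatty acid desaturases), 1.23 to 2.16 (leukocyte markers) and 1.56 to 2.48 (endothelial markers). The median log2 difference of a library ranged over -0.24 to -0.075 (cholesterol synthesis and uptake, control 1) and 0.15 to 0.24 (cholesterol synthesis and uptake, control 3) with 1 library left out. Depth limits genes below about 10 normalized counts, where the counting error was 31.0% to 35.6%.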
